A study of Homo sapiens with 6 samples.

Results

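The homologous recombination and Fanconi anaemia repair genes examined here are 44 genes chosen by name, by a rule that uses no measured value. Earlier results of these data were known when the genes were chosen, so the list was not blind to the values. UMUC3-c31 cells, a human bladder cancer line whose c31 designation is not explained in the labels, were held for 24 h in charcoal-stripped serum, which is depleted of steroids. They then received ethanol vehicle or 10 nM R1881, a synthetic androgen, for 24 h, with 3 biological replicates per condition by the design text. Each sample was read on 1 Affymetrix array, and each value is the log2 RMA signal of a probe set, a group of short probes for one transcript. A probe set was used if the platform annotation maps it to 1 gene, and the set with the highest mean over the 6 arrays stood for its gene. By that rule 40 of the 44 genes were measured among 18129 genes in all. BRCA2, FANCA, FANCD2 and RBBP8 had no probe set under 1 gene name and were not analysed here.

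Homologous recombination repairs a broken chromosome by copying the intact sister. The broken end is resected, a recombinase filament is loaded with the help of BRCA1, PALB2 and the recombinase paralogs, and the joined strands are then separated. The Fanconi anaemia proteins detect DNA crosslinks at stalled replication forks, where a core complex ubiquitinates the FANCD2-FANCI pair and hands the lesion to recombination. Many of these genes are transcribed mainly as cells enter S phase.

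The values limit what can be read from single genes. Array medians ran from 5.49 to 5.51, and 39 of the 40 measured genes lay above the background level of 4.99 (log2), the 90th percentile of 423 olfactory receptor and keratin-associated genes, in at least 1 group. RAD51B was the exception. Vehicle and R1881 arrays lay apart on the first principal component, and vehicle replicate 1 stood off on the second (11.04 against -8.21 and -6.99 for the other vehicle arrays). The signal of KRT18 (10.75 in vehicle) and the mesenchymal marker VIM (14.1) was high. Of 16 measured urothelial markers 6 lay above background in at least 1 group (KRT18, KRT8, KRT7, FOXA1, GATA3 and UPK1A), and 10 did not, KRT5, UPK2, EPCAM and CDH1 among them. KRT7 rose by 0.40 and KRT18 fell by 0.37 (limma adjusted p = 0.0192 and 0.00830). Of 4 mesenchymal markers FN1 rose by 0.73 (limma adjusted p = 0.00473) and the others did not pass. The part of these markers in the results below was not tested. Of 10 immune and endothelial markers 3 lay above background in at least 1 group (CD68, at 8.93 in vehicle, CD3E and VWF). None of the 10 was called by limma (1 higher and 1 lower at an unadjusted p under 0.05). Of 8 fibroblast markers 2 lay above background (ACTA2, at 7.36 in vehicle, and PDGFRB). None of the 8 was called and none had such a p. Arrays do not count molecules, so the precision of each difference rests on 3 arrays per group. Each SE and interval below is limma's moderated one, which draws a gene's variance toward that of all genes. In whole-culture RNA, fewer cells in S phase and less transcript per cell cannot be told apart.

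Only RAD51AP1 among the 40 repair genes passed the adjusted threshold, and it fell. A gene that did not pass was not thereby shown to be unchanged. That is 1 gene lower and none higher, while 2.42% of all genes tested passed the same threshold (0.816% lower and 1.60% higher). The share of called members is therefore near the background and is not in itself a result about these genes. The count depended on the fit. Without dim genes 7 of 39 members were lower past the threshold, beside 3.02% of genes, and with a trended, robust prior variance 8 of 40 were, beside 2.32%. The test was limma's moderated fit over all genes with Benjamini-Hochberg adjustment and a threshold of 0.05, and every adjusted p below comes from it. By sign, 33 of the 40 genes were lower with R1881 and 7 were higher, against 48.7% lower among all genes. The median change was -0.13 on the log2 scale, against 0 over all genes tested, and the quartiles were -0.21 and -0.07. The extremes were -0.30 for RAD51AP1 and 0.30 for XRCC3, so no difference reached 1.5-fold.

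In 17 of the 40 genes every R1881 array lay below every vehicle array, while 9.93% of all genes, and 14.8% of those above background, did so. In 2 genes, XRCC3 and MUS81, every R1881 array lay above every vehicle array, a pattern shown by 8.53% of all genes. At an unadjusted p under 0.05 there were 17 lower genes and 1 higher, where 7.19% and 7.07% of all genes stood. The count of 17 genes without overlap became 26 when R1881 replicate 1 was left out, beside 14.9% of all genes in that smaller set of arrays. It became 20 without vehicle replicate 1, beside 14.2% of all genes. After median-centring of the arrays it stayed at 17, beside 15.8% of all genes. Relative to each gene's mean, the median over the 40 genes stood at 0.04, 0.05 and 0.06 in vehicle replicates 1 to 3 and at -0.04, -0.08 and -0.07 in R1881 replicates 1 to 3. No R1881 array reached the vehicle arrays in that summary, and R1881 replicate 1 was the nearest to them.

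**Figure D1:**
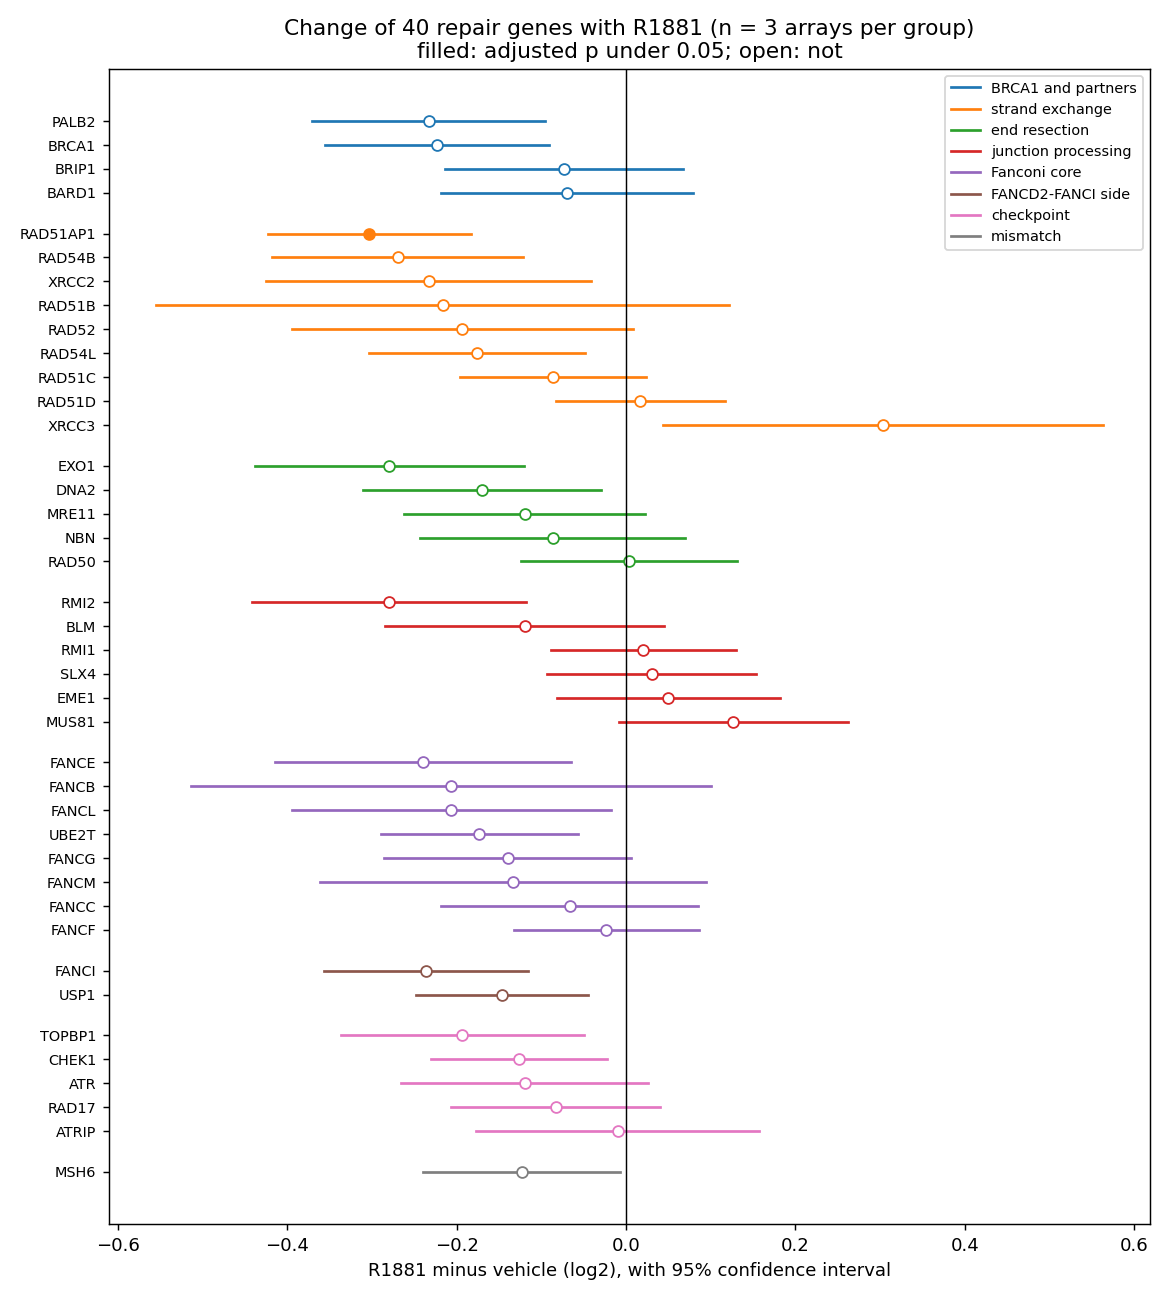
Each point is a gene's change (R1881 minus vehicle, log2) on the horizontal axis with its 95% confidence interval, grouped by role on the vertical axis, n = 3 arrays per group; a filled point passed the adjusted threshold. Most points lie left of 0, RAD51AP1 is the filled one, and XRCC3 and MUS81 lie farthest to the right.

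Strand exchange is the step where a filament of recombinase searches for and pairs with the sister sequence. RAD51AP1, which binds the filament and stimulates pairing, read 9.04, 8.91 and 9.04 in the vehicle arrays and 8.69, 8.69 and 8.70 in the R1881 arrays. The groups did not overlap, and the R1881 arrays were nearly equal. It fell by 0.30 ± 0.05 (SE), or to 0.810 times vehicle (95% confidence interval 0.746 to 0.881, limma adjusted p = 0.0305). For this gene alone, p was 0.1 in a two-sided exact permutation test, which is as low as 3 arrays against 3 can go. All 4 of its probe sets were lower, from -0.30 to -0.22, and in none did the groups overlap. The call was lost without vehicle replicate 1 (limma adjusted p = 0.0983), vehicle replicate 3 (0.131), R1881 replicate 1 (0.114), R1881 replicate 2 (0.128) or R1881 replicate 3 (0.112), and remained without vehicle replicate 2 (0.0342). It was also lost on the gene's dimmest probe set above background (-0.22, limma adjusted p = 0.244). Its brightest set has an identifier with an s, a kind whose probes match several transcripts. These need not be of 1 gene, as a set shared by RAD54B and FSBP is also an s set. Of the 40 genes 9 were read on s sets or on x sets, BRCA1 on an x set.

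RAD54B and RAD54L are the motor proteins that remodel DNA during strand pairing. RAD54B read 7.82, 7.66 and 7.78 in vehicle and 7.50, 7.55 and 7.40 with R1881, a difference of -0.27 ± 0.06 without overlap (limma adjusted p = 0.0970). A further probe set, shared by RAD54B and FSBP, stood at -0.39 ± 0.17 with overlapping groups. RAD54L read 7.50, 7.48 and 7.42 against 7.28, 7.22 and 7.37, or -0.18 ± 0.05 (limma adjusted p = 0.199), again with no overlap. Neither gene passed the threshold.

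The 5 recombinase paralogs, which build and steady the filament, did not share a direction. XRCC2 stood at -0.23 ± 0.08, RAD51C at -0.09 ± 0.05 and RAD51D at 0.02 ± 0.04. Over all their probe sets XRCC2 ran from -0.23 to 0.05, RAD51C from -0.17 to 0.03 and RAD51D from -0.06 to 0.19. RAD51B stood at -0.22 ± 0.14, below background in both groups. XRCC3, the partner of RAD51C, read 5.39, 5.82 and 5.65 in vehicle and 5.88, 5.86 and 6.03 with R1881. Its difference of 0.30 ± 0.11 was the highest of the 40 genes, and it missed the threshold (limma adjusted p = 0.279). The vehicle arrays spread over more than the gap between the groups, and the lowest of them, replicate 1, carried much of the difference: without it the change was 0.19 (adjusted p = 0.399 by limma). RAD52, which anneals complementary strands, stood at -0.19 ± 0.09 with overlapping groups. Of these 9 strand exchange genes 1 fell and 8 did not pass.

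BRCA1 and its partners direct the recombinase to the break. BRCA1, a ubiquitin ligase with BARD1, read 7.97, 8.11 and 8.13 in vehicle and 7.84, 7.88 and 7.82 with R1881. The difference was -0.22 ± 0.06 without overlap (limma adjusted p = 0.120). Of its 5 probe sets the 4 above background were lower, from -0.24 to -0.11, and the dimmest, at a mean of 3.48, stood at 0.02. PALB2, the bridge between BRCA1 and BRCA2, read 7.29, 7.19 and 7.22 against 7.08, 7.01 and 6.91. Its difference was -0.23 ± 0.06, also without overlap (limma adjusted p = 0.119). BARD1 (-0.07 ± 0.06) and the helicase gene BRIP1 (-0.07 ± 0.06) overlapped between the groups. None of the 4 genes passed limma's threshold, and 2 had an unadjusted p under 0.05.

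**Figure D2:**
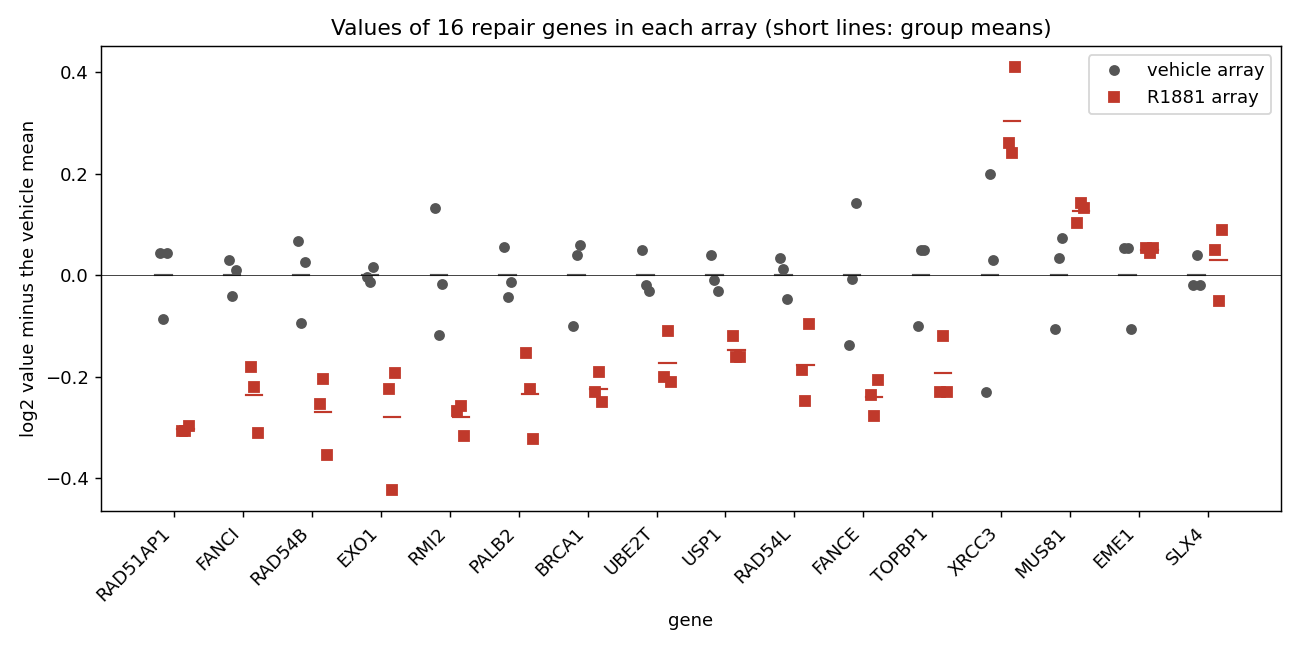
The vertical axis gives each array's log2 value minus the gene's vehicle mean for 16 genes, the 12 with the smallest p and the 4 with the highest change; circles are vehicle arrays, squares R1881 arrays and short lines group means. From RAD51AP1 to TOPBP1 every square lies below every circle, and for XRCC3 and MUS81 every square lies above.

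End resection trims the break to single strands. The long-range nuclease gene EXO1 read 7.00, 6.99 and 7.02 in vehicle and 6.78, 6.58 and 6.81 with R1881. The vehicle arrays were tight and R1881 replicate 2 was the lowest, and the difference of -0.28 ± 0.07 did not pass (limma adjusted p = 0.107). DNA2, the other long-range nuclease, stood at -0.17 ± 0.06 on its brightest set (limma adjusted p = 0.264). Its second set read 6.91, 6.98 and 6.87 against 6.48, 6.60 and 6.59. When every probe set was tested, DNA2 fell by 0.36 ± 0.06 on that set, with a limma adjusted p of 0.0293. The sets of DNA2 thus differed in size by about as much as the smaller change itself. The MRE11-RAD50-NBN complex, which senses the break and starts resection, had smaller differences on its brightest sets. MRE11 stood at -0.12 ± 0.06, NBN at -0.09 ± 0.07 and RAD50 at 0.003 ± 0.05, all with overlapping groups. A second MRE11 set stood at -0.26 ± 0.08 and 2 further NBN sets at -0.14 ± 0.06 and -0.12 ± 0.05, each lower without overlap and none past the threshold when every set was tested. Over all their sets MRE11 ran from -0.26 to -0.04 and RAD50 from -0.09 to 0.12. On their brightest sets, none of the 5 measured resection genes passed limma's threshold, and 2 had an unadjusted p under 0.05.

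Junction processing separates the joined chromosomes, either by dissolution (BLM with RMI1 and RMI2) or by cutting (MUS81 with EME1, on the scaffold SLX4). On the brightest sets this was the only role group of more than 1 gene with a median above 0 (0.03), and 4 of its 6 genes were higher by sign. RMI2 was the low one, at 8.22, 7.97 and 8.07 in vehicle and 7.82, 7.83 and 7.77 with R1881. Its difference was -0.28 ± 0.07 without overlap (limma adjusted p = 0.113), while its partner RMI1 stood at 0.02 ± 0.05 on its brightest set. The other RMI1 sets were lower, at -0.04, -0.05 and -0.18, so the sign of RMI1 depended on the set. The lowest of them had no overlap and did not pass when every set was tested (limma adjusted p = 0.296). BLM, the helicase of the same complex, stood at -0.12 ± 0.07. MUS81 read 8.94, 9.08 and 9.12 against 9.15, 9.19 and 9.18, a difference of 0.13 ± 0.06 (limma adjusted p = 0.379). Its groups did not overlap, but vehicle replicate 3 came within 0.03 of the lowest R1881 array. EME1 read 7.46, 7.46 and 7.30 against 7.46, 7.45 and 7.46, with only vehicle replicate 3 apart. SLX4 read 6.96, 7.02 and 6.96 against 7.03, 6.93 and 7.07, with the groups mixed. None of the 6 passed limma's threshold, and 1, RMI2, had an unadjusted p under 0.05.

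All 8 measured genes of the Fanconi core complex group were lower by sign, with a median of -0.16, and none passed limma's threshold. Of them 3 had an unadjusted p under 0.05. UBE2T, the E2 enzyme that supplies ubiquitin, read 9.22, 9.15 and 9.14 in vehicle and 8.97, 9.06 and 8.96 with R1881, or -0.17 ± 0.05 (limma adjusted p = 0.172). FANCE, the subunit that contacts FANCD2, read 6.93, 7.06 and 7.21 against 6.83, 6.79 and 6.86, or -0.24 ± 0.07 (limma adjusted p = 0.203). Both genes kept the groups apart, with a wider vehicle spread for FANCE. FANCL, the ligase subunit, stood at -0.21 ± 0.08 and FANCG at -0.14 ± 0.06. Over their 3 probe sets each, FANCE ran from -0.24 to -0.12 and FANCL from -0.21 to -0.05. FANCB (-0.21 ± 0.13) and FANCM (-0.13 ± 0.10) had larger errors, and FANCC (-0.07 ± 0.06) and FANCF (-0.02 ± 0.05) lay near 0 on their brightest sets. Neither was uniform over its 3 probe sets, which ran from -0.07 to 0.22 for FANCC and from -0.23 to 0 for FANCF. The lowest FANCF set had no overlap between groups and did not pass when every set was tested (limma adjusted p = 0.153).

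The substrate side of the Fanconi pathway stood lower as well. FANCI, the ubiquitinated partner of FANCD2, read 7.85, 7.78 and 7.83 in vehicle and 7.64, 7.60 and 7.51 with R1881. Its difference of -0.24 ± 0.05 was the nearest to the threshold after RAD51AP1 (limma adjusted p = 0.0763), and all 3 of its probe sets were lower. USP1, the enzyme that removes the ubiquitin again, read 10.84, 10.79 and 10.77 against 10.68, 10.64 and 10.64. The groups lay apart by -0.15 ± 0.04 (limma adjusted p = 0.182). Neither passed limma's threshold, and both had an unadjusted p under 0.05.

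The checkpoint genes signal stalled forks to the cell cycle. TOPBP1, the activator of the ATR kinase, read 9.97, 10.12 and 10.12 in vehicle and 9.84, 9.95 and 9.84 with R1881, or -0.19 ± 0.06 without overlap (limma adjusted p = 0.212). On its second probe set it stood at -0.06. CHEK1, the kinase downstream of ATR, stood at -0.13 ± 0.04, and each of its 6 probe sets was lower without overlap, from -0.14 to -0.05. ATR (-0.12 ± 0.06), the clamp loader gene RAD17 (-0.08 ± 0.05) and ATRIP, the partner of ATR (-0.01 ± 0.07), overlapped between groups. None of the 5 passed limma's threshold, and 2 had an unadjusted p under 0.05. MSH6, a mismatch recognition gene in the same list, stood at -0.12 ± 0.05, without overlap.

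The probe sets not chosen for the comparison were read as well. The 40 genes had 107 probe sets, of which 85 were lower by sign. Above background lay 88, and 75 of these were lower. More than 1 set was present for 24 genes, and all sets were lower in 13 of them. The genes whose sets lay on both sides of 0 included RAD50, RAD51D, FANCC and RMI1. RAD52, with 12 sets, ran from -0.19 to 0.12. When every probe set was tested, 2 of the 107 passed limma's threshold, 1 of RAD51AP1 and 1 of DNA2.

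**Figure D3:**
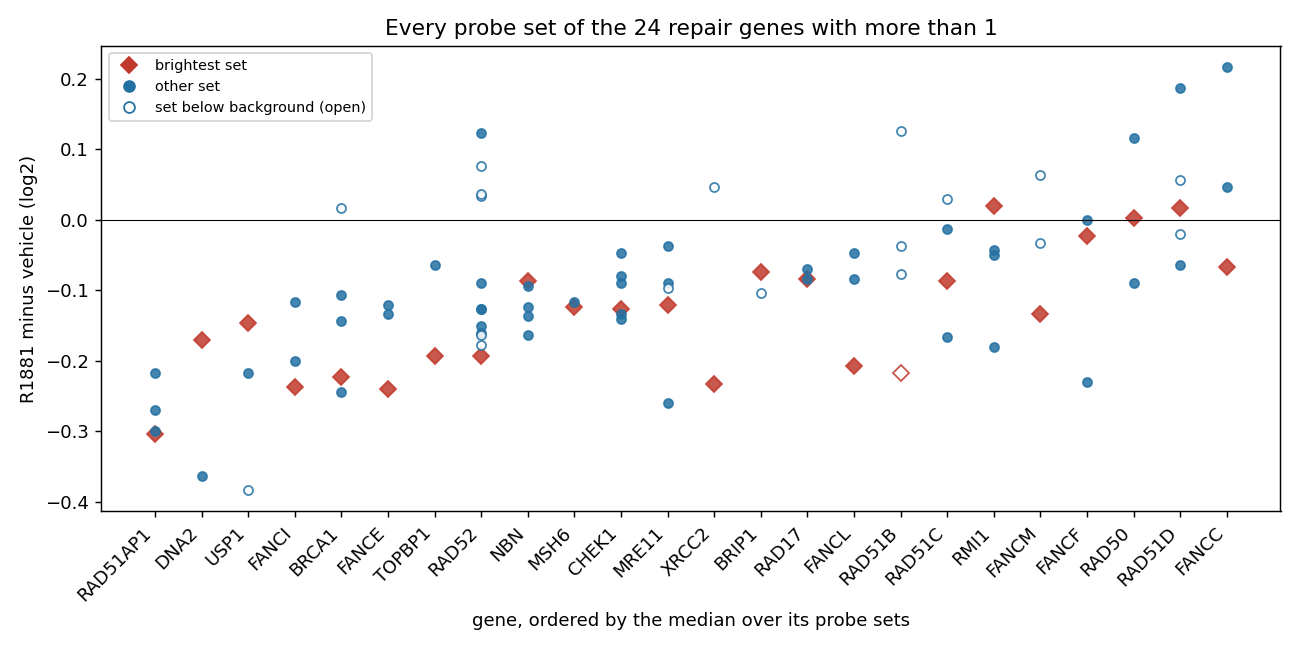
Each symbol is 1 probe set of a repair gene that has several, with its change (R1881 minus vehicle, log2) on the vertical axis; diamonds are the brightest sets, circles the others, and open symbols lie below background. The 4 RAD51AP1 sets lie together near -0.3, while the sets of DNA2 and FANCC are spread.

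A split by cell cycle behaviour, taken from general knowledge, put 21 of the measured genes with those commonly described as transcribed around S phase and 19 with the rest. The split, too, was made with earlier results of these data known. The first group had a median of -0.17, with 20 of 21 genes lower by sign and 14 lower without overlap. EME1 was the gene that was not lower. The others had a median of -0.08, with 13 of 19 lower by sign and 3 lower without overlap (PALB2, FANCE and FANCL). Lower without overlap were 9.93% of all genes and 14.8% of those above background. The share in the first group was 66.7%. The share in the others, 15.8%, lay near that of genes above background and is not in itself a result about them. The difference between both groups was not tested. The 36 measured replication genes also had a median of -0.17, with 27 of them lower without overlap and 35 lower by sign. GINS2, PRIM1, MCM6, POLE2 and PCNA, parts of the replication fork machinery, fell by 0.23 to 0.26 (limma adjusted p from 0.0308 to 0.0458), and none of the 36 rose. Of 20 mitotic genes 2 fell, KIF23 by 0.32 and NUF2 by 0.30, none rose and the median was -0.15. Among all genes tested 0.816% were called lower. Each of these 7 calls was lost without any 1 of the 6 arrays (limma adjusted p from 0.0650 to 0.172). The part of the cell cycle in the lower repair transcripts was not tested.

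**Figure D4:**
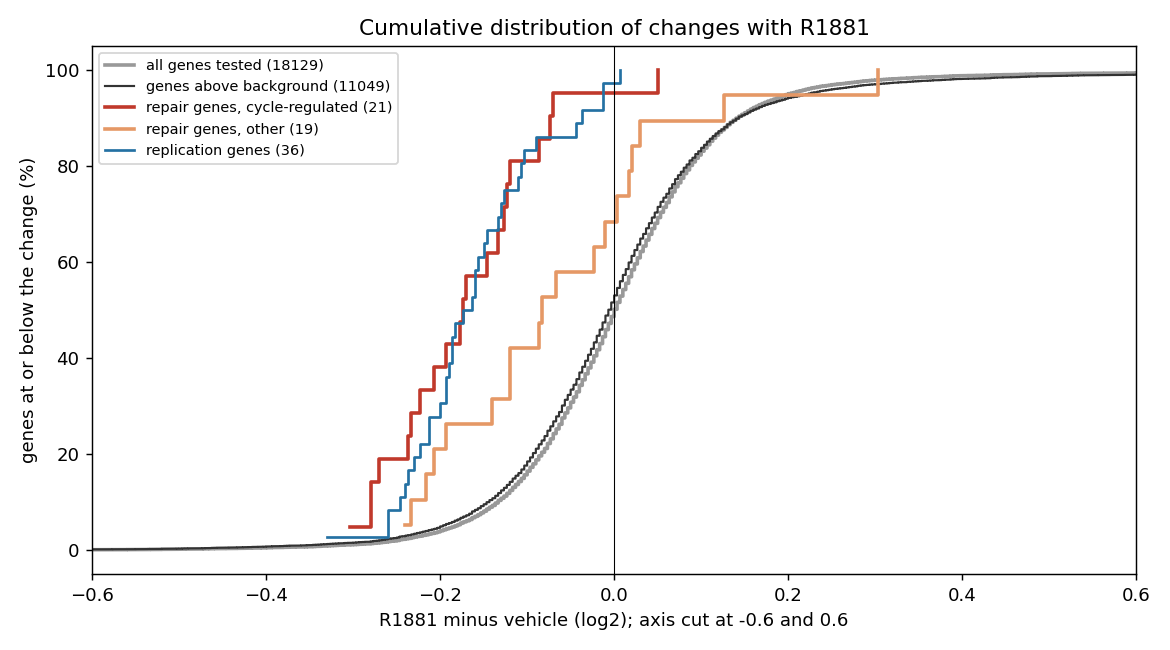
The horizontal axis is the change (R1881 minus vehicle, log2) and the vertical axis the percentage of genes at or below it, for all genes, genes above background, the 2 groups of repair genes and the replication genes. The curve of the 21 S phase repair genes lies along that of the replication genes. Over its middle, the curve of the other 19 lies between these and all genes. That order does not hold in the lower tail, where the lowest of the 19 is -0.24 and the lowest of all genes -1.84.

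Genes of the same pathway outside the 44 were read from a second list of 55, of which 50 were measured. SFR1, a recombination mediator, fell by 0.38 ± 0.04 (limma adjusted p = 0.00471, and at most 0.0316 over the 6 sets of 5 arrays). No other passed, and none rose, where 0.816% of all genes were called lower and 1.60% higher. The next smallest p belonged to FAAP100, a Fanconi core subunit, at 0.27 ± 0.06 (limma adjusted p = 0.0740), and to the helicase gene HELQ, at -0.27 ± 0.07 (limma adjusted p = 0.110). The median of the 50 was -0.06, with 36 lower by sign and 10 (20%) lower without overlap. The median was -0.10 for 10 end joining genes, with 4 (40%) lower without overlap. It was -0.03 for 27 excision repair genes, with 6 (22.2%) lower without overlap. Beside these counts, 9.93% of all genes and 14.8% of those above background were lower without overlap. Limma called none of either list (3 and 4 were lower at an unadjusted p under 0.05, where 7.19% of all genes stood). These medians are descriptions, and no difference between lists was tested.

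The promoters of the measured repair genes, lower or not, were searched for letters of known regulatory sites. E2F factors switch on S phase genes, and the core of their site was taken as TTCCCGC or TTGGCGC on either strand. RefSeq windows (GRCh38.p14) from 250 bases before to 50 after a start were at hand for 35 of the 40 measured genes, some with several windows. The core was present for 19 of the 35 genes (54.3%), against 15.2% of 14422 genes of the array table. It was present for 8 of the 13 genes that were lower without overlap and for 11 of the other 22. The share of 54.3% thus describes a list chosen by name, and no difference between its parts was tested. The stricter TTTCCCGC or TTTGGCGC, which contains the core, was found for 3 of the 35 (8.57%, against 3.78%). The letters TTTGAA of the CHR element were found for 14.3% of the members and 15.9% of all, and CCAAT for 51.4% and 42.4%. The androgen receptor half-site AGAACA was found for 2 of the 35, EXO1 and RAD17 (5.71%, against 14.8%). The motifs were chosen after the values were seen, and a match describes letters, not binding. The 150 bases before the start are shown for the gene that fell, for 3 others that were lower without overlap and for EME1, which was not lower, each 5′ to 3′ on the strand of the gene with the E2F core in capitals. They lie at chr12:4538740-4538889 (plus strand), chr17:43125365-43125514 (minus), chr1:46247538-46247687 (plus), chr3:133661942-133662091 (minus) and chr17:50373079-50373228 (plus).
RAD51AP1: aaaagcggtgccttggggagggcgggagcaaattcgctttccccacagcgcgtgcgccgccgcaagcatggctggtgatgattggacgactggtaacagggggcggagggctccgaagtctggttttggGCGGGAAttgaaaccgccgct
BRCA1: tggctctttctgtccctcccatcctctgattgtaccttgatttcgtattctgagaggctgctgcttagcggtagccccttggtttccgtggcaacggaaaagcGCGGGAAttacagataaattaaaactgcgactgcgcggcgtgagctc
RAD54L: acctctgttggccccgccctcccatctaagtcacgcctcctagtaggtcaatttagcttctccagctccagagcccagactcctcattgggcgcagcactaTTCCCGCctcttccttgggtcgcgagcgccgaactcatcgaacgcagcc
TOPBP1: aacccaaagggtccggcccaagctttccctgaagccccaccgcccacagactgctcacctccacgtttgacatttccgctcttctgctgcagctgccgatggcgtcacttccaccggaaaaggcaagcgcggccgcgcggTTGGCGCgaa
EME1: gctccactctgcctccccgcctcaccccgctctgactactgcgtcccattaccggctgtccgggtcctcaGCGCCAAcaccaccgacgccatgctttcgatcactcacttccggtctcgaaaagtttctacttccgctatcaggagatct
The first base of the core lies 21 bases before the start in RAD51AP1, 47 in BRCA1, 49 in RAD54L, 10 in TOPBP1 and 80 in EME1. All genes shown were picked for having a match there. Its presence in them therefore cannot compare lower genes with EME1.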

How the data were processed

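The deposited table holds log2 values that the authors produced by RMA according to the submitters' processing notes, with background correction, quantile normalization and a summary per probe set as that method does. The sources used here name no version. Quantile normalization removes a shift of all genes in one direction. The deposited values carry 2 decimals. Of 49193 probe sets 44898 had 1 gene name by the platform annotation. The brightest set of each gene was fitted with limma 3.58.1 in R 4.3.3 (lmFit and eBayes, two-sided, Benjamini-Hochberg over 18129 genes, no filter, threshold 0.05). The script was tested on simulated data. Changes were put into a small share of genes, all above background, with normally distributed noise at limma's moderated variance. The script recovered 8% of log2 changes of 0.2, 46% of 0.3 and 90% of 0.5. In that setting, changes of the size seen in most members would often be missed. Recovery in the real data can differ, since it depends on how many genes change. Every measured member is named, and array values are given for members past the threshold, the 12 with the smallest p and the 4 with the highest change. Further sets of DNA2, MRE11, NBN, FANCF and RMI1 were added after their values were seen. In each of these genes they included a set lower without overlap, so that choice leaned to 1 direction. Ranges over the sets of XRCC2, RAD51C, RAD51D, RAD50, MRE11, FANCE and FANCL were also given with their values known. The members and lists were chosen with earlier results of these data known. Alternatives were other scalings, priors, probe set rules and filters, array weights, a replicate block and leaving out each array.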

Additional observations from a re-analysis of the deposited data

How the results depend on the processing

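The median change of the repair genes kept its sign under all 15 alternatives, from -0.15 to -0.12, and 32 to 35 genes stayed lower by sign. With 1 array left out it was -0.15 to -0.12. The trended prior, the replicate block and the test of every probe set leave each gene's change as it is. They gave -0.13 and could not move this median. The count of changed repair genes did not hold. It was 7 of 39 without dim genes (BRCA1, EXO1, FANCI, PALB2, RAD51AP1, RAD54B and RMI2, beside 3.02% of genes called lower), 8 with a trended robust prior (UBE2T and USP1 in, PALB2 out, beside 2.32%), 2 when probe sets of a gene were averaged (DNA2 and RAD51AP1) and 0 to 1 with an array left out. The call over all genes moved likewise, from 438 to 757 without dim genes, 895 with the trended prior, 226 with the dimmest probe set above background and 209 to 270 with an array left out. Repair genes lower without overlap numbered 10 with the dimmest set (beside 8.50% of all genes) and 17 to 26 with an array left out (beside 13.8% to 14.9%), a count recomputed only after the data were seen. EME1 turned to -0.0033 without vehicle replicate 3, and ran from there to 0.077 over the left-out arrays. With the replicate block, 222 genes and 0 repair genes were called, and RAD51AP1 had a limma adjusted p of 0.0985. The replicate numbers were not taken as pairs, since deviations of same-numbered arrays correlated at only 0.09, 0.06 and 0.03, although each array correlated best with its own number.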
